A study of Mus musculus with 2 samples.

Results

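The epidermal growth factor receptor (EGFR) system was described in skin with imiquimod (IMQ)-induced inflammation through 9 genes, which were chosen as a list of symbols among the 31053 genes of the count tables. Of these, 6 encode ligands (*Areg*, *Ereg*, *Hbegf*, *Tgfa*, *Epgn* and *Btc*) and 3 encode receptors (*Egfr*, *Erbb2* and *Erbb3*). Each symbol was found once in each library. IMQ, an agonist of Toll-like receptors, was applied for 5 days to wild type C57BL/6 mice, and 1 library of 3′ RNA from single cells in droplets was prepared from dermis and 1 from epidermis. No untreated library was used here, so nothing below compares inflamed with healthy skin.

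Both groups, IMQ dermis and IMQ epidermis, therefore share strain, genotype, age and treatment, and differ in the layer. The labels give an age of 10 weeks and the ear as the treated site, while the methods give a younger age for the model. Per the methods, the layers were parted with Dispase II, all live epidermal cells were loaded, and dermal cells were sorted as CD45+ live cells. The labels name only the removal of dead cells, and how many animals stand behind a library was not given in the sources used here.

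All 6 ligands are made as membrane-anchored precursors that metalloproteases such as ADAM17 release, and they act on the same or nearby cells. EGFR binds all of them, ErbB2 has no known ligand and serves as the preferred partner of the other receptors, and ErbB3 is a neuregulin receptor with a weak kinase. In epidermis the system is known for driving keratinocyte proliferation, migration and wound closure, and amphiregulin, the product of *Areg*, is also made by T cells and other lymphocytes.

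The regulatory DNA just before the start of *Areg* is shown because *Areg* had the largest difference among the 9 genes, and that of *Epgn* because it lies on the same stretch of chromosome and was also higher in the same cells. *Epgn*, *Ereg*, *Areg* and *Btc* follow each other on mouse chromosome 5 within 375.5 kb (GRCm38, 91027464 to 91402994), the first 3 on the plus strand and *Btc* on the minus strand. The windows are those of RefSeq for GRCm38.p6, with 250 bases before and 50 bases from the start, plus strand, at chr5:91139349-91139648 for *Areg* and chr5:91027267-91027566 for *Epgn*. Capitals mark a match to the cAMP response element TGACGTCA.

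Areg: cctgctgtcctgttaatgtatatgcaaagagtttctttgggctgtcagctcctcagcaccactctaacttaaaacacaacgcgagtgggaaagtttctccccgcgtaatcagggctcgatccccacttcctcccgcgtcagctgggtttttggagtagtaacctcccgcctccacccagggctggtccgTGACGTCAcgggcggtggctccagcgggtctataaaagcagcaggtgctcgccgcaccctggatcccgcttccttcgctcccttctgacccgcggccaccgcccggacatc

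Epgn: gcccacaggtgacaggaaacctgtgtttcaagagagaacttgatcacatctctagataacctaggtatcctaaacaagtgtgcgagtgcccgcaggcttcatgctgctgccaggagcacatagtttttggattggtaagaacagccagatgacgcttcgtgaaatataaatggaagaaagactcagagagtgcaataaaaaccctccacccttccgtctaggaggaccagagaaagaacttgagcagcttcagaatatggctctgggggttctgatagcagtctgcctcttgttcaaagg

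The match in the *Areg* window begins 61 bases before the start. TGACGTCA reads the same on both strands and was found in 1.79% of all 32851 RefSeq windows of 300 bases. Of the 6 genes with a window that were searched on both strands (*Areg*, *Epgn*, *Btc*, *Tgfa*, *Egfr* and *Erbb2*), *Areg* alone held it. The AP-1 motif TGANTCA was in 0 of the 6 and in 7.81% of all windows. A match is a run of letters only, and its absence says nothing about a factor.

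*Tgfa* lies on chromosome 6 (86195223 to 86275719, plus strand), *Egfr* (16752203 to 16918158) and *Erbb2* (98412470 to 98437716) on the plus strand of chromosome 11, and *Erbb3* on the minus strand of chromosome 10 (128567523 to 128589652). All 9 are annotated as protein-coding.

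Kept were cells in which 200 or more genes were found and mitochondrial UMIs did not pass 10%, a UMI (unique molecular identifier) standing for 1 transcript that was captured. No upper limit was set on genes. This left 4747 of 5376 dermal and 4173 of 5258 epidermal cells, with medians of 7010 and 25918 UMIs per cell. The libraries shared 30 cell barcodes. Levels are CPM, the UMIs of a gene summed over the cells of a cluster and scaled to 1000000 UMIs of that cluster. Clusters were built without the 9 genes and without 40 other genes of the pathway. They were named from marker genes or from genes that led them. With 1 library per tissue there is no replicate, so no test was made and no p-value is given. The 95% intervals are exact and account for the counting of UMIs or cells alone. "Higher" and "lower" below mean past 2-fold, among genes with at least 20 UMIs over both clusters.

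Over all cells of a library, *Areg* was at 63.8 CPM in the epidermis (6702 UMIs) and at 22.1 CPM in the dermis (894 UMIs), and *Hbegf* at 65.8 (6908 UMIs) and 10.0 CPM (404 UMIs). *Epgn* and *Tgfa*, at 38.6 and 12.1 CPM in the epidermis, were at 0.0743 (3 UMIs) and 0.198 CPM (8 UMIs) in the dermis. *Ereg* and *Btc* were rare in both, with 112 and 44 UMIs in the epidermis and 39 and 10 in the dermis. The receptors *Egfr*, *Erbb2* and *Erbb3* were at 13.2, 13.9 and 16.3 CPM in the epidermis and at 4.53, 0.941 and 1.66 CPM in the dermis.

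In the epidermis, 2855 of the kept cells fell into 6 keratinocyte clusters that are compared here, and 144 and 225 more into 2 keratinocyte clusters that were left unnamed. The basal keratinocyte-like cluster (729 cells) served as the reference. A cycling basal cluster (688 cells) carried 7 of 10 cycling markers. A small basal cluster of 79 cells was led by *Atf3*, *Klf2*, *Nr4a1* and *Fosb*, genes of the rapid response to stimuli and stress. It also carried 6 of 10 cycling markers, but was named for its leading genes. Spinous (451 cells) and upper follicle (336 cells) clusters had their own markers. The sixth, of 572 cells, was led by *Csf3*, *Hmga2*, *Il24* and *Areg* itself. It met the rule of no marker list tried in naming keratinocytes, so it is called Csf3-led. The inflamed keratinocyte list was not among those tried. In it, *Krt6a*, *Krt6b* and *Krt16*, keratins of wounded and inflamed epidermis, were higher than in basal cells, at 3 of the 7 inflamed keratinocyte markers tested. Among granular markers 4 of 7 tested were higher there (*Asprv1*, *Cnfn*, *Ivl* and *Tgm3*), as were 4 of 10 cycling markers, and *Krt15* was lower. Spinous cells had the same 3 keratins higher, among 5 of 8 inflamed markers tested, and shared *Asprv1*, *Cnfn* and *Tgm3*. The same 4 cycling markers were higher in spinous and upper follicle cells too. Most of these traits were thus not particular to the Csf3-led cells. No cluster met the rule for granular keratinocytes.

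Most ligands stood high in the Csf3-led cells. Against basal keratinocytes, 5 of the 8 genes of the EGFR list that could be tested were higher and 0 were lower, where 4.83% of all 11745 genes tested were higher and 4.62% lower. All 5 were ligands, and none of the 3 receptors passed 2-fold in either direction. The median log2 ratio was 1.86 over the 5 ligands tested and -0.49 over the receptors, beside -0.01 over all genes tested. *Btc* had 9 and 4 UMIs and was not tested.

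**Figure D1:**
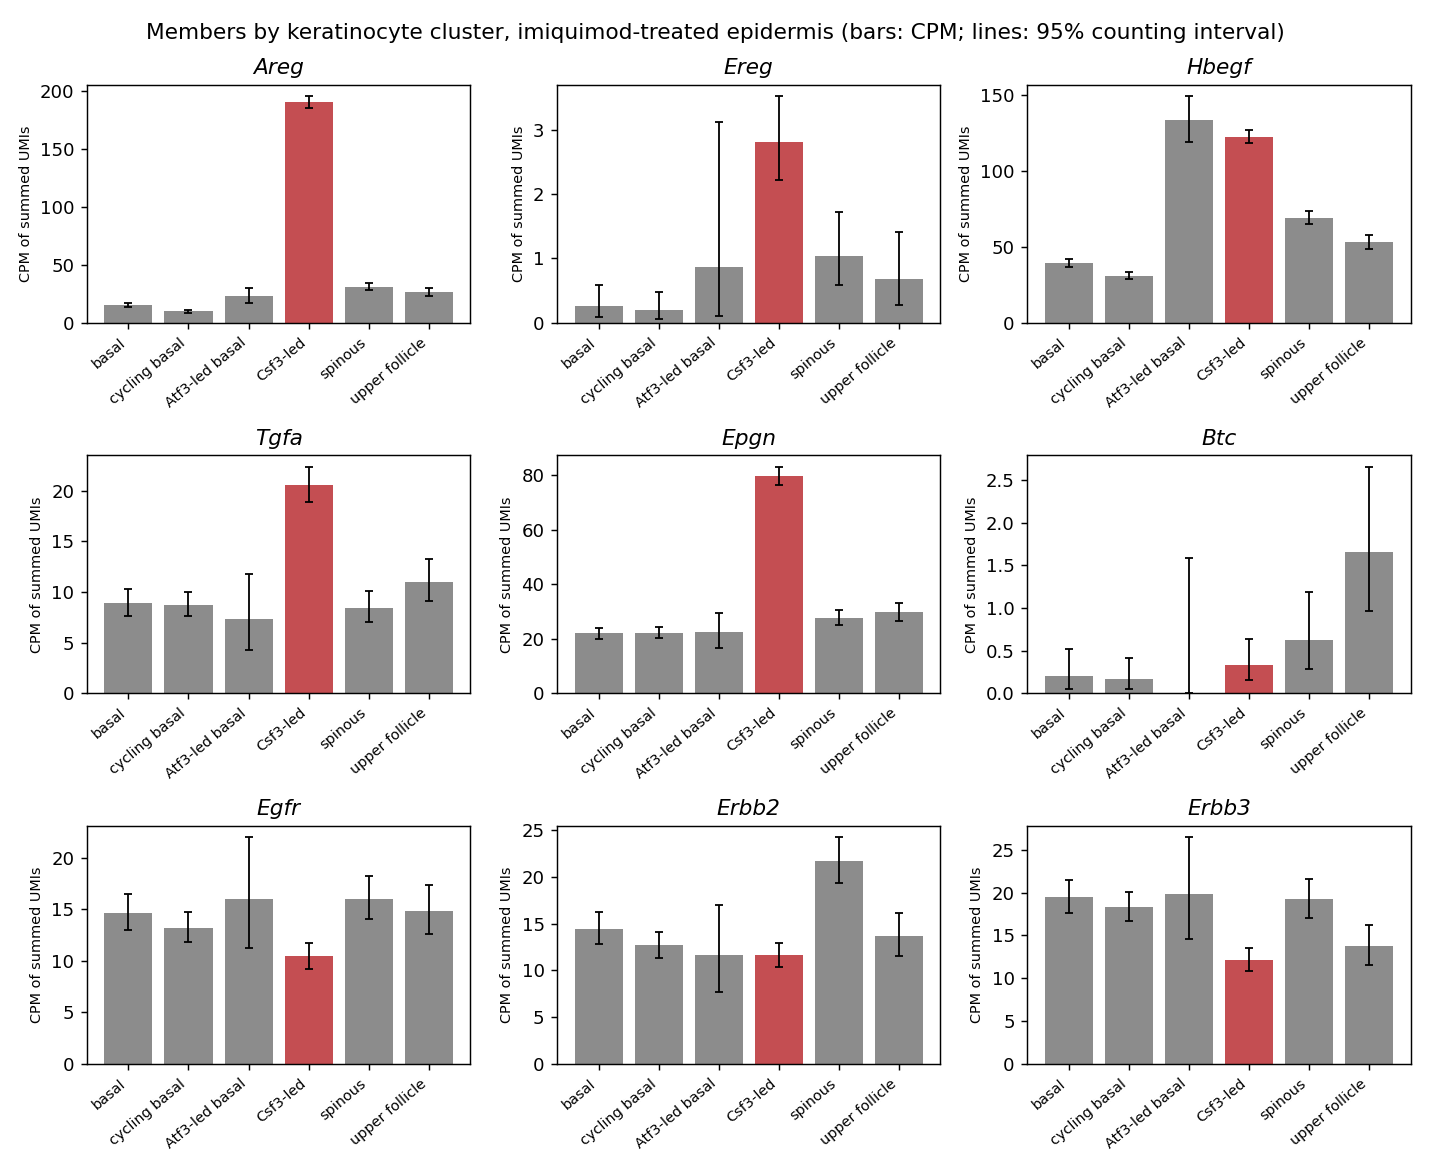
Levels of the 9 genes, in CPM of summed UMIs on linear axes, in 6 keratinocyte clusters of the epidermal library, with bars for the level and lines for the exact 95% counting interval. The Csf3-led cluster (red) stood highest for *Areg*, *Ereg*, *Tgfa* and *Epgn*, the Atf3-led and Csf3-led clusters were both high for *Hbegf*, and the receptors differed by less than 2-fold between the 6 clusters.

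*Areg* was at 190 CPM (185 to 196, from 5147 UMIs) in Csf3-led cells and at 15.4 CPM (304 UMIs) in basal cells, a ratio of 12.4 (11.02 to 13.9). This was the 14th largest ratio of the 11745 genes. The other clusters were far below, at 9.94 CPM in cycling basal, 22.9 in Atf3-led, 26.5 in upper follicle and 30.9 in spinous cells. The Csf3-led cells made up 13.7% of the cells and 25.7% of the UMIs of the library, and held 76.8% of its *Areg* UMIs. Most of these cells lie beyond the limits of the study's methods (5000 genes, 5% mitochondrial UMIs), within which 172 of the 572 cells remained, with a log2 ratio of *Areg* to basal cells of 3.30.

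The *Areg* transcripts were spread unevenly over these cells. Of the 572 cells, 439 (76.8%) had at least 1 *Areg* UMI, and the richest cell had 328. The richest decile of the cells held 56.7% of the UMIs, and the 5 richest held 15.4%. Without the richest cell of each cluster the ratio to basal cells was on the log2 scale 3.67, beside 3.63 with it.

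Since the Csf3-led cells had more UMIs per cell (median of 47766.5, against 26534 in basal cells), each cell was also thinned to 1000 UMIs. At this depth 13.3% of the Csf3-led cells (10.6 to 16.4%, 0 cells left out) and 1.79% of the basal cells (0.954 to 3.03%, 1 left out, 22.9% unthinned) had an *Areg* UMI. Langerhans-like cells of the same library, taken as a class that should lack the gene, had 1.07% (0.13 to 3.81%, 10 left out, 7.11% unthinned, median depth 7884). The Csf3-led share lay above this background. The basal share did not part from it. By level, the basal cells at 15.4 CPM stood above the Langerhans-like cells (8.69 CPM, 15 UMIs). They lay within the interval of the epidermal macrophage-like cells (15.2 CPM, 7.29 to 28.0).

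*Ereg*, which encodes epiregulin, was a rare transcript with the next largest ratio. It had 76 UMIs in 53 Csf3-led cells (2.81 CPM) and 5 UMIs in basal cells (0.253 CPM), a ratio of 11.1 (4.56 to 35.2), ranked 25th of all genes tested. The size of the ratio is thus loosely fixed, since the basal level rests on 5 UMIs. *Ereg* also reached the minimum of 20 UMIs only through the Csf3-led cells, and in spinous cells only through these, so neither call is support.

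*Epgn*, which encodes epigen, was at 79.7 CPM (2155 UMIs) in Csf3-led cells and at 22.0 CPM (434 UMIs) in basal cells, a ratio of 3.63 (3.27 to 4.03). The cycling basal, Atf3-led, spinous and upper follicle clusters lay between 22.3 and 29.7 CPM, close to the basal level. Csf3-led cells held 53.1% of the *Epgn* UMIs of the library.

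*Hbegf*, which encodes heparin-binding EGF-like growth factor, was at 122 CPM (3309 UMIs) in Csf3-led and 39.1 CPM (773 UMIs) in basal cells, a ratio of 3.13 (2.89 to 3.39). It was as high in the Atf3-led basal cells, at 133 CPM (119 to 149, 309 UMIs), where the ratio was 3.41 (2.98 to 3.89). Csf3-led over Atf3-led cells gave 0.918, with an interval that includes 1 (0.816 to 1.03). Spinous cells were between, at 69.2 CPM, and cycling basal cells lowest, at 31.1 CPM.

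*Tgfa*, which encodes transforming growth factor alpha, had the smallest of the 5 ratios. It was at 20.6 CPM (557 UMIs) in Csf3-led and 8.91 CPM (176 UMIs) in basal cells, a ratio of 2.31 (1.95 to 2.76) whose interval includes 2. The cycling basal, Atf3-led and spinous clusters lay between 7.34 and 8.72 CPM. With cells thinned to 1000 UMIs the ratio was 1.87.

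**Figure D2:**
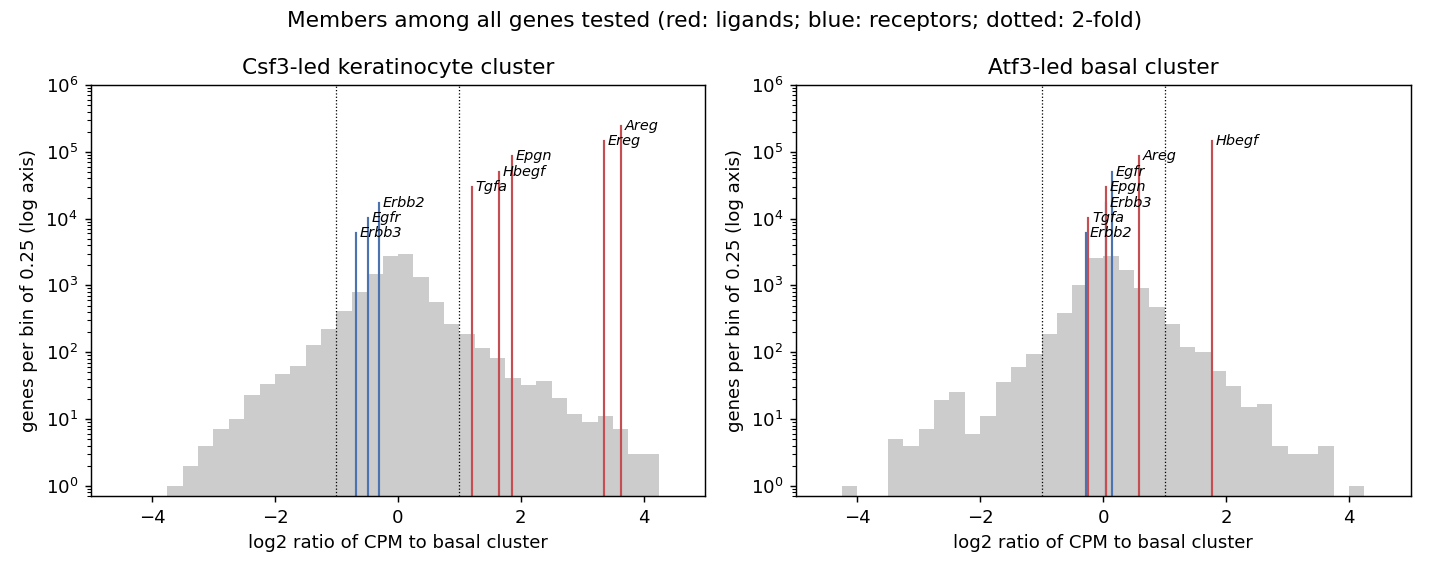
Distribution of the log2 ratio of CPM to the basal cluster over all genes tested (grey bars of width 0.25, log count axis), for the Csf3-led and the Atf3-led clusters, with ligands as red and receptors as blue lines (line height has no meaning) and dotted lines at 2-fold. In the Csf3-led cluster *Areg* and *Ereg* stood near the right end and the receptors left of 0, while in the Atf3-led cluster *Hbegf* alone passed 2-fold.

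The ligands were often found in the same cells. With cells thinned to 10000 UMIs, a depth chosen after the data were seen, 51.6% of 562 Csf3-led cells had at least 2 of the 6 ligands and 28.3% had at least 3, against 10.4% and 1.01% of 692 basal cells. *Areg* and *Hbegf* were found together in 31.9% of the Csf3-led cells, more than the product of their shares. *Areg* and *Epgn* were found together in 30.1%, with a product of 22.0%. *Areg* and *Egfr* met in 5.16% of the cells, with a product of 5.34%. At least 2 ligands were found in 20.7% of upper follicle, 17.6% of spinous and 17.3% of Atf3-led cells. *Areg* and *Hbegf* met in 6.91% of upper follicle cells (product 4.01%) and 6.59% of spinous cells (product 4.39%). An excess over the product was thus not particular to the Csf3-led cells. These are descriptions of 1 library, and cells left out were the shallowest.

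T cell transcripts were also higher in the Csf3-led cells. Of 7 T cell markers tested, 4 were higher than in basal cells (*Cd3g*, *Tcrg-C1*, *Trbc1* and *Trbc2*). *Trbc2* was at 130 against 63.3 CPM and *Cd3g* at 18.4 against 8.61 CPM, and the sum of the markers was at 182 against 91.5 CPM, while it ranged from 74.7 to 109 CPM in the other named keratinocyte clusters. The epidermal cluster led by *Prf1* and *Trat1*, with 7 of 10 T cell markers, had *Cd3g* at 6932 CPM and *Areg* at 39.3 CPM. When keratinocytes above the basal median of T cell marker CPM (79.1) were left out, 75 Csf3-led and 365 basal cells remained, *Areg* was at 222 CPM and its ratio was 16.1, and *Areg*, *Hbegf* (3.45), *Epgn* (3.19) and *Tgfa* (3.15) were higher.

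Among the other keratinocyte clusters the differences were few. In the Atf3-led basal cells 1 of 7 tested genes of the list was higher, *Hbegf*, and 0 were lower, with 5.67% of all genes higher and 2.48% lower. *Areg* was at 22.9 CPM there, a ratio of 1.49 (1.09 to 1.995). In cycling basal cells 0 of 7 were higher or lower, with 2.18% of all genes higher and 0.978% lower. *Areg* had its lowest level there, 9.94 CPM, a ratio of 0.646 (0.543 to 0.767).

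In spinous cells 2 of 8 were higher and 0 lower, with 4.48% of all genes higher and 7.11% lower. *Areg* was at 30.9 CPM, a ratio of 2.01 (1.73 to 2.33) that sits at the threshold, and *Ereg* had 15 against 5 UMIs (1.04 and 0.253 CPM), a ratio of 4.11 (1.42 to 14.5). Neither call held when the richest cell, the cells with the highest doublet scores, or the cells rich in T cell markers were left out. *Hbegf* had a ratio of 1.77 and *Erbb2* of 1.504 (1.28 to 1.77), short of 2-fold.

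*Btc*, which encodes betacellulin, had its own place. In the upper follicle cluster it had 17 UMIs in 10 of 336 cells (1.66 CPM) against 4 UMIs in basal cells (0.203 CPM), a ratio of 8.20 (2.67 to 33.5). Of 8 genes tested in this cluster it was the 1 that was higher and 0 were lower, with 8.32% of all genes higher and 3.26% lower, but it reached the minimum of 20 UMIs only through this cluster, so that count is no support. The 5 richest cells held 70.6% of these UMIs, and the call was lost without the richest cell. It was lost because too few UMIs were left to test *Btc*. With the pseudocount, the *Btc* fold ranged from 2.18 to 20.9 over 7 alternatives. The low end, from cells thinned to 1000 UMIs, is what the pseudocount and cluster sizes give with no *Btc* UMI in either cluster. The range thus does not show that the ratio was stable. *Areg* and *Hbegf* had ratios of 1.72 and 1.35 in the same cells.

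Of the unnamed keratinocyte clusters, that of 144 cells was led by *Dct*, *Pmel* and *Gpnmb*, genes known from melanocytes. *Areg* was at 72.8, *Hbegf* at 74.4 and *Epgn* at 58.0 CPM there, between basal and Csf3-led cells. *Tgfa* was at 24.8 CPM, beside 20.6 CPM in Csf3-led cells, from only 3.71% of the *Tgfa* UMIs of the library. *Erbb3* was at 31.7 CPM and *Erbb2* at 26.4 CPM. These cells had a median of 11587.5 UMIs and 6.97% mitochondrial UMIs, where the other keratinocyte clusters had 0.42 to 2.29%. The part of RNA quality in these values was not tested. The cluster of 225 cells, led by *Cd52* and *H2-Aa*, had a median of 993 UMIs and few UMIs of each gene. *Areg* was at 23.5 CPM there (11.7 to 42.1), *Hbegf* at 38.5 CPM and *Epgn* at 27.8 CPM.

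The receptors differed by less than 2-fold over the 6 keratinocyte clusters compared. *Egfr* ranged from 10.4 CPM in Csf3-led to 16.0 CPM in spinous cells over them, and Csf3-led cells had 0.710 times the basal level (0.601 to 0.840). *Erbb3* ranged from 12.1 CPM in Csf3-led to 19.9 CPM in Atf3-led cells, with a Csf3-led ratio of 0.621 (0.534 to 0.721) and an upper follicle ratio of 0.706 (0.578 to 0.859). *Erbb2* was lowest in Csf3-led (11.6 CPM) and Atf3-led (11.7 CPM) cells and highest in spinous cells at 21.7 CPM among the 6. Among these 6 clusters the Csf3-led cells thus had the highest levels of 4 ligands and the lowest of *Egfr*, though no receptor ratio reached 2-fold. Their *Erbb2* and *Erbb3* levels were also lowest, but not apart from every other cluster. *Erbb2* was 0.9965 times the Atf3-led level (0.672 to 1.54), and *Erbb3* was 0.878 times the upper follicle level (0.719 to 1.08). The Csf3-led *Erbb2* ratio of 0.805 (0.684 to 0.948) turned above 1 when cells were thinned to 1000 UMIs.

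The other genes of the pathway did not move as one group. In Csf3-led cells 4 of 34 tested were higher and 2 were lower, where 4.83% of all genes tested were higher and 4.62% lower. The median log2 ratio was -0.02 beside -0.01 over all genes. *Nrg1*, which encodes neuregulin-1, a ligand of ErbB3 and ErbB4, was at 75.0 against 16.4 CPM, a ratio of 4.57 (4.07 to 5.16). *Fosl1*, a subunit of AP-1, had a ratio of 5.26 (4.35 to 6.41), *Phlda1*, induced by growth factors, of 5.86 (5.32 to 6.46), and *Dusp5*, a nuclear phosphatase of ERK, of 3.40 (2.26 to 5.27). The lower genes were *Timp3*, an inhibitor of ADAM17 (0.365, 0.247 to 0.533), and *Spry1*, an inhibitor of receptor signaling (0.403, 0.263 to 0.612). Of the genes that limit the receptors 0 of 6 passed in either direction, and likewise 0 of 6 adaptors.

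In the Atf3-led basal cells, 9 of 32 pathway genes tested were higher and 0 lower, where 5.67% of all genes tested were higher and 2.48% lower. The median log2 ratio was 0.41 beside 0.08 over all genes. Of 8 early response genes 5 were higher, among them *Fos* (918 against 174 CPM, ratio 5.28) and *Egr1* (140 against 34.6 CPM, ratio 4.06). *Errfi1*, a feedback inhibitor of EGFR, had a ratio of 3.71 (2.85 to 4.79). *Spry1* had a ratio of 3.56 (2.21 to 5.62), opposite in direction to that in Csf3-led cells. This cluster is itself led by early response genes, and *Timp3*, *Fosl1*, *Ier3*, *Phlda1* and *Spred2* made up the rest of the 9.

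In the upper follicle cluster 10 of 35 pathway genes were higher and 0 lower, where 8.32% of all genes tested were higher and 3.26% lower. Among the 10 were all 3 tested neuregulins (*Nrg1*, *Nrg2* and *Nrg4*). The rest were *Timp3*, *Lrig1*, *Eps8*, *Dusp5*, *Fosl1*, *Ier3* and *Phlda1*. *Nrg1*, *Dusp5*, *Fosl1* and *Phlda1*, the pathway genes higher in Csf3-led cells, were thus higher in this cluster too. *Nrg4* stood at 5.37 CPM against 0.101 CPM in basal cells. With so low a basal level, *Nrg4* reached the minimum of UMIs only through the upper follicle cluster. Its call is thus no support for the count of 10 or for the neuregulins as a set. In spinous cells 4 of 33 were higher (*Rhbdf2*, *Dusp5*, *Fosl1* and *Phlda1*) and 4 lower (*Nrg2*, *Lrig1*, *Spred2* and *Etv5*). Of all genes tested, 4.48% were higher there and 7.11% lower. *Rhbdf2*, which encodes a partner of ADAM17, had a ratio of 2.30 (1.82 to 2.91), and *Lrig1*, which limits ErbB receptors, of 0.357 (0.200 to 0.607). In cycling basal cells 0 of 34 passed in either direction, where 2.18% of all genes tested were higher and 0.978% lower.

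Most epidermal immune clusters had *Areg* and *Hbegf* near or below the level that their keratin transcripts would bring. Every epidermal immune cluster carried keratin transcripts (*Krt5*, *Krt14*, *Krt1* and *Krt10*), so the level that keratinocyte RNA would bring along was computed from that panel. Langerhans-like cells had *Areg* at 8.69 CPM where 16.5 would come with the keratins, and macrophage-like cells 15.2 where 15.7 would. T cell-like cells had 27.1 CPM (10 UMIs) where 22.5 would come. The *Prf1*-led cells had 39.3 CPM (44 UMIs in 33 of 473 cells), 2.12 times the 18.6 CPM that would come, and dendritic-like cells 27.8 CPM (7 UMIs), 2.405 times the 11.5 CPM that would come. For *Hbegf* the same ratio was 0.511 in *Prf1*-led and 1.05 in T cell-like cells. Csf3-led cells had 2.73 times the *Areg* that the panel gives for the mean keratinocyte, so the panel is a rough guide only. *Egfr* in Langerhans-like cells was at 11.01 CPM (19 UMIs) where 3.37 would come with the keratins.

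In the dermis, T cells held most of the *Areg* transcripts. The 302 T cell-like cells had 584 *Areg* UMIs, or 196 CPM (180 to 212), and held 65.3% of the *Areg* UMIs of the library in 6.36% of its cells. The next named immune class was the basophils at 24.3 CPM (30 UMIs), a ratio of 8.06 (5.59 to 12.1). Dendritic-like cells followed at 15.9 CPM and monocyte-like cells at 14.7 CPM, with intervals that overlap each other, and neutrophils were at 4.16 and macrophages at 1.68 CPM. Mast cells had 0 *Areg* UMIs, but their few UMIs in all allow up to 21.8 CPM, so they cannot be ranked. The largest dermal cluster, of 1007 cells (21.2%) led by *Acp5*, *Cd300e* and *Cd72*, was left unnamed and is outside this ranking. It had *Areg* at 6.08 CPM, or 5.03% of the *Areg* UMIs, and *Hbegf* at 5.27 CPM, or 9.65% of the *Hbegf* UMIs. *Krt14* was near 0 in the dermal T cells, with 3 UMIs in all of them. Another keratin gene, *Krt28*, was among the leading genes of the γδ T cell-like sub-cluster described below.

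Among the 7 named immune classes with at least 50 cells, 2 of the 3 EGFR genes that could be tested, *Areg* and *Egfr*, had a leading class past 2-fold over the next, where 19.6% of all 10267 genes did. The other 6 had too few UMIs. *Egfr* reached the minimum of 20 UMIs only through the macrophage-like class, with 25 UMIs against 2 in basophils, so its call is no support. T cells were the leading class for 20.1% of the genes past 2-fold.

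*Areg* was found in a minority of the dermal T cells. Of the 302 cells, 79 (26.2%) had a UMI, the richest cell had 118, and the richest decile of the cells held 87.3% of the UMIs. Thinned to 1000 UMIs, 11.6% of T cells (8.17 to 15.8%, 9 left out, median depth 7936.5) had *Areg*, and 0.211% of macrophage-like cells did (0.00535 to 1.17%, 7 left out, 1.67% unthinned, median depth 8315). The T cell share thus lay above that of the macrophage-like cells, a class of like depth with a low *Areg* level (1.68 CPM, 8 UMIs). No class was fixed beforehand as one that lacks the gene.

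The T cells fell into 3 sub-clusters. Regulatory T cell-like cells (109 cells, *Foxp3* at 159 CPM) had *Areg* at 329 CPM (285 to 377) and γδ T cell-like cells (128 cells) at 187 CPM (166 to 209), a ratio of 1.76 (1.47 to 2.12). Of the 293 *Areg* UMIs of the γδ T cell-like cells 1 cell held 118, and of the 201 UMIs of the regulatory T cell-like cells 1 cell held 50. Without these cells the levels were 112 CPM in γδ and 249.9 CPM in regulatory T cell-like cells, a ratio of 2.23 (1.78 to 2.78). The regulatory sub-cluster also carried *Il17a*, at 587 CPM, beside 1778 CPM in the γδ T cell-like cells. A sub-cluster of 65 T cells with 7 of 8 macrophage markers had 112 CPM, and without it the T cells were at 226 CPM. *Hbegf* went the other way, with 3 UMIs (4.91 CPM) in regulatory and 32 UMIs (20.4 CPM) in γδ T cell-like cells, a ratio of 0.241 (0.0472 to 0.770). Thinned to 1000 UMIs, 20.6% of the regulatory and 7.87% of the γδ T cell-like cells had an *Areg* UMI (33.9 and 21.1% unthinned, median depths of 4982 and 10257.5 UMIs, 7 and 1 cells left out).

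A further dermal cluster of 66 cells, led by *Ccdc184*, *Calca* and *Gata3*, had *Areg* at 129 CPM (88.3 to 182, 32 UMIs in 12 cells). Its T cell markers were *Trbc1*, *Trbc2* and *Icos*, and *Cd3g* was at 80.7 CPM against 845 in the T cell-like class, so it was left unnamed. Its *Areg* level was 0.659 times that of the T cells (0.447 to 0.941).

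**Figure D3:**
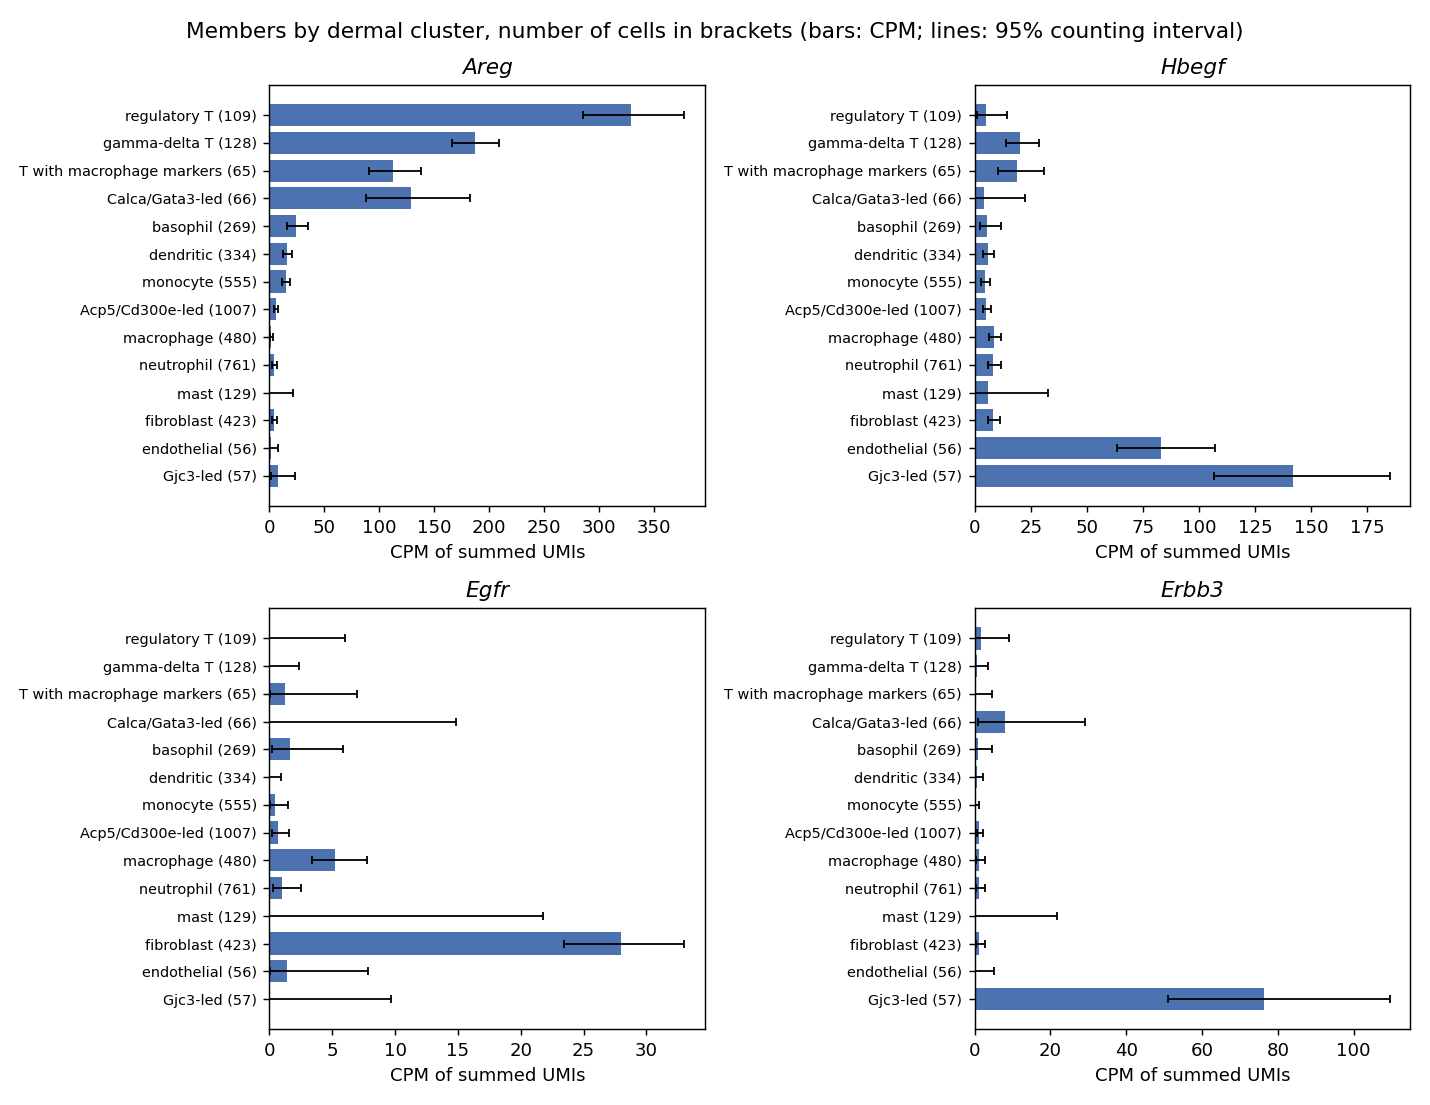
Levels of *Areg*, *Hbegf*, *Egfr* and *Erbb3*, in CPM of summed UMIs on linear axes, in 14 dermal clusters, with cell numbers in brackets and lines for the exact 95% counting interval. *Areg* was highest in the 3 T cell sub-clusters and the *Calca*- and *Gata3*-led cells, *Hbegf* in *Gjc3*-led and endothelial cells, *Egfr* in fibroblasts and *Erbb3* in *Gjc3*-led cells.

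*Hbegf* in the dermis was spread over more clusters than *Areg*, with 14.6% of its UMIs in endothelial-like cells, 13.4% in a *Gjc3*-led cluster and 12.4% in T cells. The *Gjc3*-led cluster of 57 cells, also led by *Kcna1* and with *Sox10* at 231 CPM, had it at 142 CPM (107 to 185, 54 UMIs). *Sox10* encodes a transcription factor of neural crest cells, and the cluster was left unnamed. Endothelial-like cells (56 cells) were at 83.3 CPM (63.4 to 107). Among the immune classes T cells led at 16.8 CPM and macrophages followed at 8.63 CPM, a ratio of 1.94 (1.26 to 3.01), short of 2-fold. This order changed with the setting, since neutrophils led by the mean of per-cell CPM and macrophages after thinning to 1000 UMIs. After thinning, the ratio of T cells to macrophages was 0.869 with the pseudocount, from few UMIs. NK-like cells had 35.1 CPM, but from 9 UMIs of which 1 cell held 8. Although the methods describe a CD45+ sort, these non-immune cells and 423 fibroblast-like cells were in the dermal library.

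*Egfr* in the dermis was mainly a fibroblast transcript, at 27.9 CPM (137 UMIs) and 74.9% of the *Egfr* UMIs of the library. Macrophage-like cells led the immune classes at 5.26 CPM (25 UMIs in 20 of 480 cells). The next class, basophils, had 2 UMIs, a ratio of 3.25 whose interval (0.810 to 28.3) includes 1, and 2.65 with the pseudocount used for calls. The collagen panel in the macrophages would bring 0.320 CPM of fibroblast *Egfr* with it. Unthinned, 4.17% of macrophages (2.56 to 6.36%) and 1 of 302 T cells had a UMI. Thinned to 1000 UMIs the macrophage share was 0.423%, and 0 of 293 T cells had one, which allows a share of up to 1.02% of cells with a UMI at this depth.

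*Erbb3* was at 76.2 CPM (51.1 to 110, 29 UMIs in 19 of 57 cells) in the *Gjc3*-led cluster, which held 43.3% of the dermal *Erbb3* UMIs. No other dermal cluster was above 8.07 CPM. The same cells had 4 *Btc* UMIs (10.5 CPM). *Ereg* was found in dermal fibroblasts, with 24 UMIs (4.89 CPM) and 61.5% of the dermal total. Macrophages had 0 UMIs, and the lower exact limit of the ratio of fibroblasts to them was 5.83. *Epgn* had 3 UMIs and *Tgfa* 8 UMIs in all dermal cells, beside 4058 and 1267 in the epidermal library.

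Over both libraries, the ligand pattern parted into epidermal and shared genes. *Epgn* and *Tgfa* were found almost only in the epidermal library, *Areg* and *Hbegf* in both, and *Areg* reached like levels in Csf3-led keratinocytes (190 CPM) and dermal T cells (196 CPM), in libraries of different depth that were not normalized to each other.

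**Figure D4:**
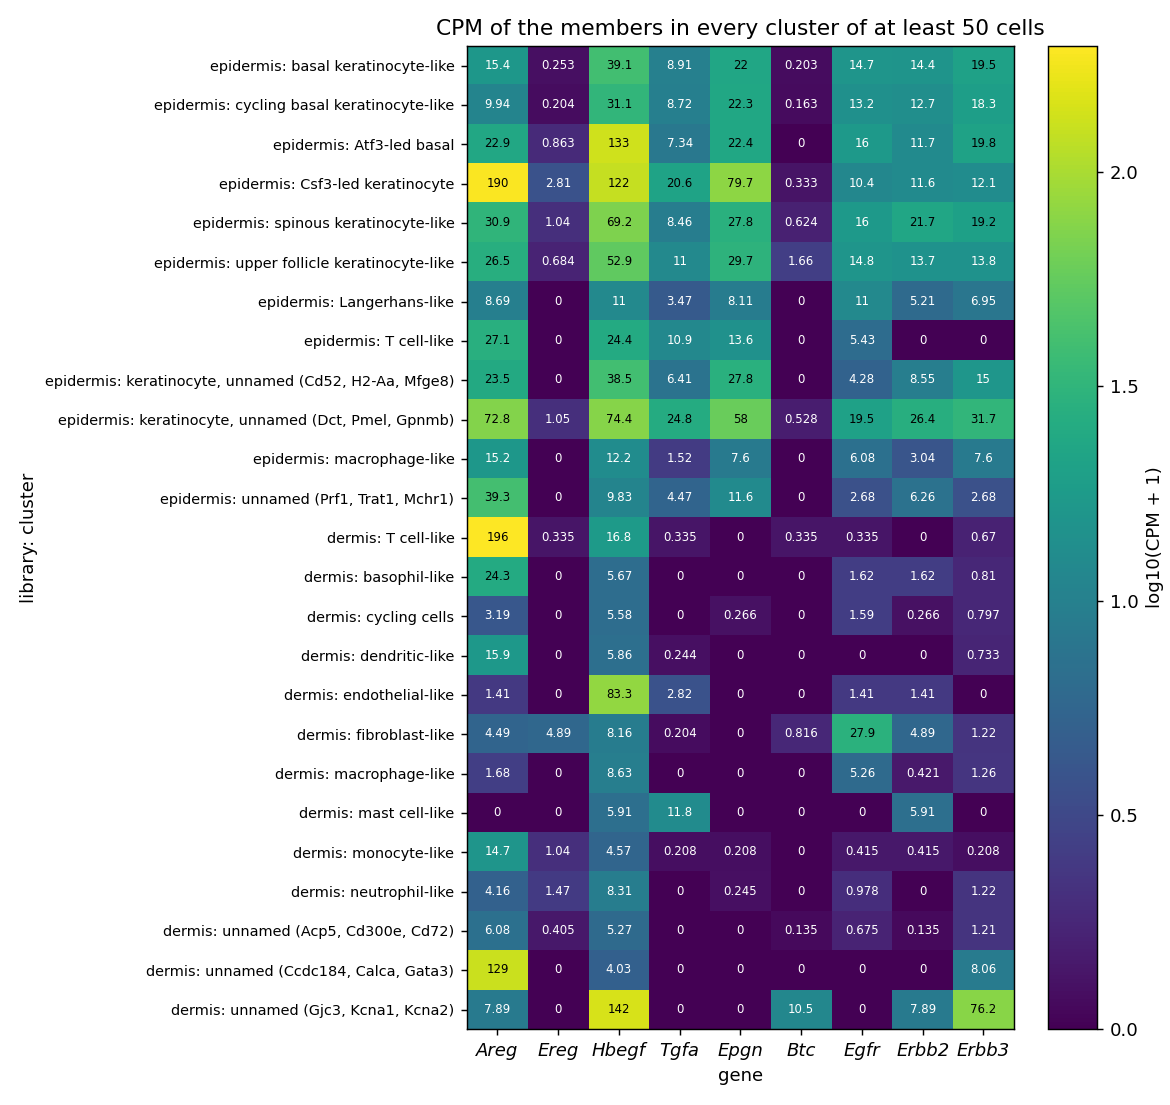
Heat map of the CPM of the 9 genes in all clusters with at least 50 cells of the epidermal and dermal libraries, coloured by log10(CPM + 1) and printed in each cell. The *Areg* column was brightest in Csf3-led keratinocytes and dermal T cells, and the *Epgn* column was near 0 in all dermal clusters.

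The genes whose level followed each gene most closely were taken by the Pearson correlation of log2(CPM + 1) over the 18 named classes with at least 50 cells, among 9597 genes. The classes share 2 libraries and the split between keratinocytes and other cells, so the values describe and test nothing. For *Areg* they were *Acsbg1* (0.845), *Pkp3* (0.838) and *Isy1* (0.826), lower than for *Epgn*, with *Dsg3* and *Klk10* at 0.989. For *Ereg* the nearest was *F3* (0.762), for *Hbegf* *Sgo2a* (0.912), for *Tgfa* *Txnl4a* (0.963) and for *Btc* *Cidea* (0.855). For the receptors they were *Echdc2* and *Rab34* (0.926 each) for *Egfr*, *Elovl7* (0.935) for *Erbb2* and *Rapgefl1* (0.981) for *Erbb3*.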

How the data were processed

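Single-cell 3′ RNA was measured in 1 dermal and 1 epidermal library. The authors deposited raw counts of UMIs per gene and cell, not normalized, made with CellRanger (version 3.0.2 in the matrix header). The submitters' processing notes name Cell Ranger, CASAVA and mm10, and the annotation was not given in the sources used here. Groups were taken from the labels.

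From these counts, cells were filtered as described above, normalized and clustered with scanpy 1.11.5 (2000 variable genes, 20 principal components, 20 neighbours, Leiden resolution 0.5), with the 9 genes and 40 pathway genes held out. Keratinocytes and dermal T cells were clustered again. Names needed 3 or more markers, each found in 25% or more of a cluster's cells at a level 2-fold or more over the other clusters. Basal clusters were set against the spinous cluster, where at least 5 markers were needed. Names are rebuilt, not the authors'. Scrublet marked 0 dermal and 8 epidermal cells and so did not work. No cell was removed as a doublet. The study's sort excluded doublets, and its methods also took out those predicted by DoubletFinder, a step not repeated here. Per the alternative, the 180 and 139 highest scores were left out.

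Summed UMIs were scaled to CPM. Calls were past 2-fold with a pseudocount of 0.5 UMI, with a minimum of 20 UMIs per gene. Ratios have exact conditional, levels exact Poisson and shares exact Clopper-Pearson intervals. Against counts of 0, ratios used a floor of 3 counts over the class. Thinning drew UMIs without replacement. The scripts were tested on simulated data. Python 3.11.15, numpy 2.4.6 and scipy 1.17.1 were used, and positions came from GENCODE M21.

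The 9 genes, the pathway genes and the markers were chosen with earlier results of these data known. All 9 genes are given. Pathway genes were named where past 2-fold, with values for some of them. For likeness, the 3 genes with the highest correlation were taken, out of those with 500 or more UMIs and without ribosomal protein and mitochondrial genes. Of these the text prints 1 to 3 a gene. Genes that lead a cluster were picked from its values. Alternative settings changed the limits on genes and mitochondria, doublet scores, clustering resolution, the richest cell, per-cell means, thinning, fold and UMI minimum. The leaving out of cells with T cell or macrophage markers, the depth of 10000 UMIs and T cell sub-clusters without their richest cell were added after the data were seen.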

Additional observations from a re-analysis of the deposited data

How the results depend on the processing

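Across 7 alternatives that recompute ratios, 266 log2 ratios to basal cells gave 215 within their counting error of the reported value and 51 that moved beyond it, and 0 called values reversed. For Csf3-led cells *Areg* ranged from 8.83-fold to 19.0-fold, *Epgn* from 2.95 to 4.21, *Hbegf* from 2.76 to 3.65, *Tgfa* from 1.87 to 3.15 and *Ereg* from 3.82 to 28.7. The low end for *Ereg*, from cells thinned to 1000 UMIs, rests on so few UMIs that the pseudocount largely sets it. The *Areg* ratio of dermal T cells to the next class ranged from 7.64 to 17.4.

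The count of genes past 2-fold over all 5 comparisons, 9, was 14 at 1.5-fold, 3 at 4-fold and 5 without the keratinocytes rich in T cell markers. The Csf3-led count of 5 was 3 with cells thinned to 1000 UMIs and 2 at 4-fold. The Atf3-led count of 1 was 0 at 4-fold, and the cycling basal count of 0 was 1 after thinning and 1 at 1.5-fold. The spinous count of 2 was 0 with limits of 5000 genes and 5% mitochondrial UMIs, without the highest doublet scores, without the richest cell, at 4-fold and without cells rich in T cell markers. It was 1 at higher clustering resolution, after thinning and with at least 50 UMIs, and 4 at 1.5-fold. The upper follicle count of 1 was 0 with the limits of 5000 genes, without the richest cell, after thinning, with at least 50 UMIs and without cells rich in T cell markers, and 2 at higher resolution and at 1.5-fold. Where this count was 0, *Btc* had fewer UMIs than the minimum, so it could not be called. The immune count of 2 was 1 with the limits of 5000 genes, by the mean of per-cell CPM, after thinning and at 4-fold. With the pseudocount, the *Egfr* ratio of macrophage-like cells to basophils turned to -0.13 on the log2 scale after thinning. By CPM without it, macrophage-like cells still ranked first, so their order was not reversed. The *Hbegf* ratio of T cells to macrophages, which was not past 2-fold, turned to -0.20 with the pseudocount. Both values rest on few UMIs. The share of Csf3-led cells with *Areg* was 13.3% at 1000, 23.6% at 2000 and 49.5% at 10000 UMIs per cell, so it is set by depth. Thinning and a higher UMI minimum leave fewer UMIs by construction. The cause of the other moves was not tested.

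No paired analysis was possible because only 1 library was made from either layer. Genes with few UMIs (*Ereg*, *Btc* and the receptors in dermal immune cells) are limited by depth, and no alternative can stand for a replicate.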
